A study of Homo sapiens with 18 samples.

Results

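The ERBB family was followed at the transcript level through 10 genes, which were picked by symbol out of the 23710 genes of each deposited count table. They are 3 receptor genes (EGFR, ERBB2 and ERBB3) and 7 ligand genes (AREG, EREG, TGFA, HBEGF, BTC, EPGN and NRG1). The rows follow from the symbols alone, but the genes were chosen with earlier results of these data known.

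ERBB receptors are tyrosine kinases of the cell surface that pair when a ligand binds, and they pass the signal on through RAS and the ERK kinases and through phosphoinositide 3-kinase. Their ligands are made as membrane-bound precursors that proteases such as ADAM17 and ADAM10 cut free. EGFR is abundant in many squamous carcinomas of the head and neck, where the tumour cells commonly make its ligands themselves.

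The samples were 3 established human head and neck squamous carcinoma lines in which EHF, an ETS transcription factor of epithelia, had been raised or lowered. A253 gave 3 libraries with EHF overexpression and 3 control libraries, and SCC25 gave 2 libraries of each kind. CAL27 gave 2 libraries with the hairpin sh 64, 2 with the hairpin sh 65 and 2 controls, whose columns are headed as sh Control. All 16 libraries are mRNA sequencing. The overexpressing cells of A253 and SCC25 were kept with doxycycline, which switches the introduced EHF on, while their controls grew in regular medium. EHF overexpression and doxycycline therefore cannot be told apart. The CAL27 knockdown and control cells all grew in regular medium, and the labels do not say whether any modified line is a clone or a pool. The labels also do not say whether libraries of a group came from separate cultures, so the p-values measure only the spread between these libraries.

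Read totals over the counted genes lay between 7068155 and 19962159 per library. Markers of squamous epithelium (KRT5, KRT14, KRT6A, TP63, CDH1, EPCAM and DSP) summed to between 5582 and 13873 TPM per library, with none of the 7 at 0. The 3 endothelial markers summed to between 0.601 and 3.37 TPM. The 6 fibroblast markers summed to between 2.37 and 79.5 TPM, and the 5 leukocyte markers to between 35.2 and 235 TPM, nearly all of it CD68, a lysosomal protein that epithelial cells also make. The column names of the hairpins stand the other way round in the deposited CAL27 count table and the deposited CAL27 TPM table. For the count table's sh 64 the replicate numbers are swapped as well. Hairpins and replicates are called here as in the count table, and which hairpin is knockdown 1 is not labelled. The mean over both hairpins does not depend on the naming.

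EHF itself moved as each group's label says. It stood at 765, 711 and 633 CPM, counts scaled by library total with no length correction, in the A253 overexpression libraries, against 84.5, 91.4 and 83.2 CPM in the A253 controls. SCC25 had 860 and 892 CPM with overexpression and 461 and 420 CPM in the controls. CAL27 had 497 and 526 CPM with sh 64, 444 and 469 CPM with sh 65 and 962 and 992 CPM in the controls. The contrast in EHF was thus larger in A253, at a log2 change of 3.02 ± 0.08 (SE), than in SCC25, at 0.99 ± 0.06 (SE), and the test of that difference gave −2.05 ± 0.11 (adjusted p = 5.56e-10, edgeR's quasi-likelihood test). The hairpins left similar amounts of EHF, and sh 65 against sh 64 gave −0.16 ± 0.07 (adjusted p = 0.23, edgeR).

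In the control libraries EGFR was the most abundant member of the family in every line on the length-corrected TPM scale, at 111 ± 33.1 TPM in A253 (SD, n = 3), 132 ± 20.2 TPM in SCC25 and 124 ± 12.8 TPM in CAL27 (SD, n = 2 each). ERBB2, the receptor with no known ligand of its own, stood at 19.2 TPM in A253, 18.3 TPM in SCC25 and 15.1 TPM in CAL27. ERBB3, which binds neuregulins and signals through its partners, stood at 13.7, 14.4 and 11.8 TPM in the same order of lines. In A253 controls the order of mean TPM after EGFR was TGFA (50.2), NRG1 (40.5), ERBB2 (19.2), EREG (18.8), ERBB3 (13.7), HBEGF (1.77), EPGN (1.29), BTC (1.19) and AREG (0.902). ERBB2 and EREG there differed by less than their SDs, and the neighbours HBEGF and EPGN, and EPGN and BTC, differed by less than the SD of EPGN. SCC25 controls had TGFA (25.3), ERBB2 (18.3), ERBB3 (14.4), HBEGF (11.6), NRG1 (9.89), EREG (8.67), EPGN (3.07), BTC (0.424) and AREG (0.354 TPM) after EGFR. BTC and AREG did not differ there beyond the SD of BTC. CAL27 controls had NRG1 (38.4), TGFA (28.1), EREG (24.7), ERBB2 (15.1), HBEGF (11.9), ERBB3 (11.8), AREG (0.727), BTC (0.685) and EPGN (0.433 TPM) after EGFR. HBEGF and ERBB3 were within 1 SD of each other in CAL27, and so were AREG and BTC.

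**Figure D1:**
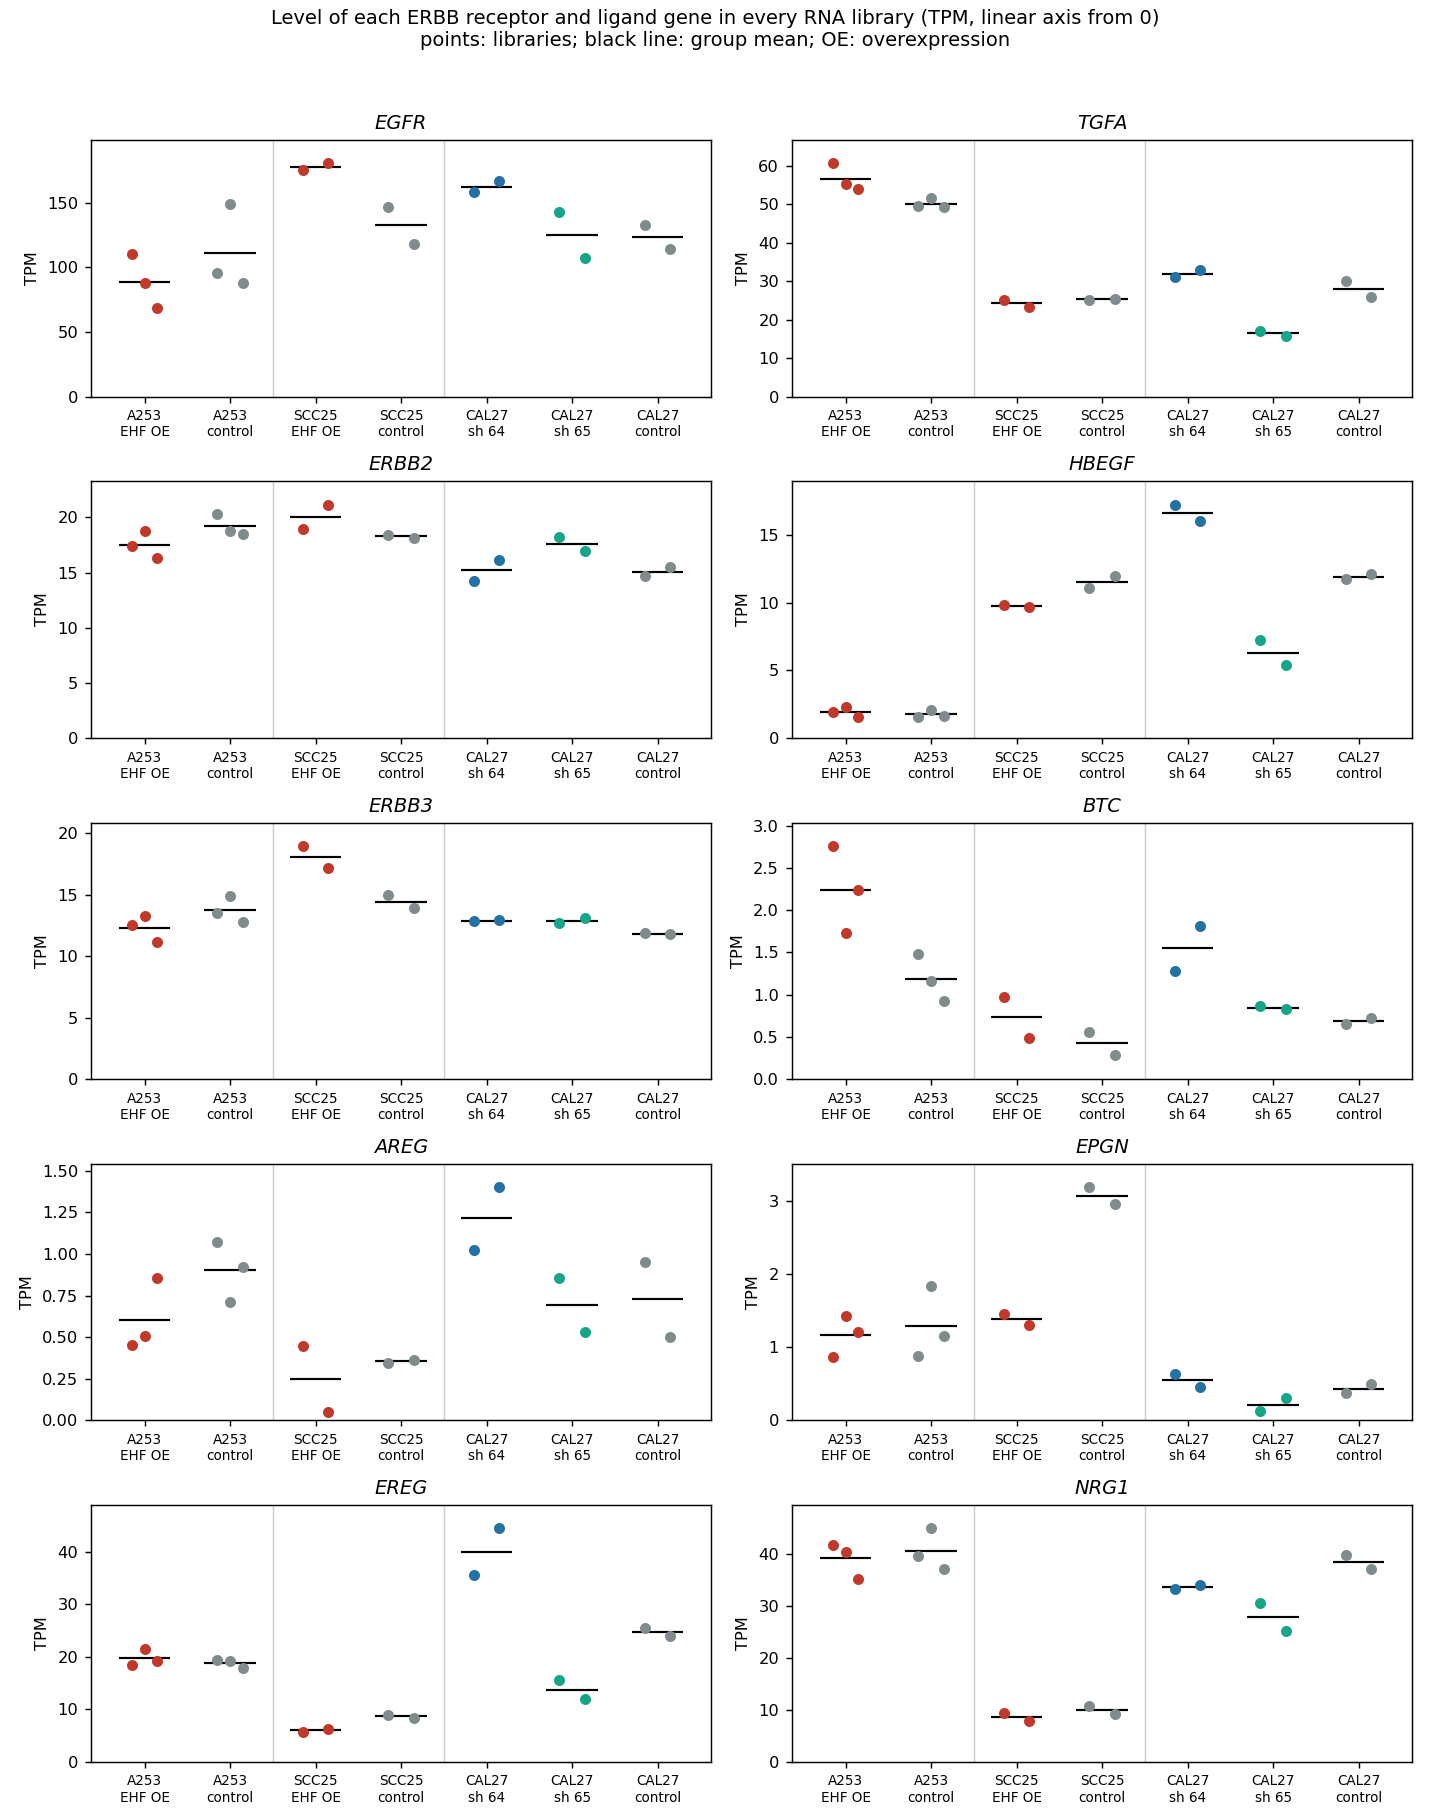
Each panel plots 1 gene, with TPM on a linear axis that starts at 0, against the 7 groups of libraries, with each EHF-changed group left of its line's control. Points are libraries and black lines are group means. EREG, HBEGF and TGFA stand apart between the hairpins of CAL27, and EGFR spreads between 88.0 and 149 TPM among the A253 controls.

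The widest differences between the lines themselves were in HBEGF, EPGN and NRG1. SCC25 controls against A253 controls gave 8 of 10 members past an adjusted p of 0.05, the threshold used throughout, while 74.5% of all genes tested passed in that comparison. CAL27 against A253 gave 5 of 10 members where 73% of all genes passed, and CAL27 against SCC25 gave 5 of 10 where 70.9% passed. The members' shares are thus near or below those of all genes, and the line cannot be told apart from anything else that differs between the lines' tables. HBEGF, an EGFR ligand that also binds heparin, was the widest of these gaps against A253. It had 13.2 and 15.01 CPM in SCC25 controls and 14.3 and 15.1 CPM in CAL27 controls, against 1.84, 2.36 and 1.98 CPM in A253 controls. HBEGF was 7.16-fold higher in SCC25 than in A253 (log2 2.84 ± 0.15) and 7.42-fold higher in CAL27 than in A253 (2.89 ± 0.15). NRG1, the neuregulin that binds ERBB3, was the ligand in which SCC25 stood low. It had 41.6 and 37.7 CPM in SCC25 controls, against 153, 167 and 148 CPM in A253 controls, a log2 difference of −1.89 ± 0.07, and CAL27 was 3.88-fold above SCC25. EREG and TGFA were also lower in SCC25 than in A253, at −0.98 ± 0.08 and −0.85 ± 0.07, while EPGN was higher at 1.38 ± 0.24. EREG was highest in CAL27, at 0.53 ± 0.07 over A253 and 1.51 ± 0.09 over SCC25. EGFR did not pass in any of the 3 comparisons between lines. A single A253 control library decides that for A253, because without its replicate 2 EGFR was higher in SCC25 by 0.59 (adjusted p = 3.86e-10, edgeR) and in CAL27 by 0.49 (adjusted p = 4.34e-08). ERBB3, AREG and BTC passed between SCC25 and A253 at 0.21, −1.19 and −1.35, and none of the 3 passed by DESeq2 (adjusted p = 0.1, 0.0795 and 0.11). ERBB3 also did not pass without SCC25 control replicate 1 (0.185) or 2 (0.0942), BTC without SCC25 control replicate 2 (0.155), and AREG without A253 control replicate 1 (0.0623) or SCC25 control replicate 1 (0.0801) or 2 (0.0501). ERBB2 was lower in CAL27 than in A253 by −0.21 and than in SCC25 by −0.27, and without CAL27 control replicate 1 neither passed (adjusted p = 0.205 and 0.082). The ERBB2 calls were also lost without A253 control replicate 1 (0.108) and without SCC25 control replicate 2 (0.051).

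In A253 no member of the family passed the test with EHF overexpression, 0 of 10 by edgeR and 0 of 10 by DESeq2, where 7.97% of all 14503 genes tested passed. Separated by direction, 5.03% of all genes were higher and 2.94% were lower. At an unadjusted p under 0.05 there were 2 members, TGFA and BTC. In these bulk libraries fewer cells that make a transcript and less transcript per cell cannot be told apart, here and in every comparison that follows. EGFR had 368, 280 and 236 CPM with overexpression, against 313, 466 and 298 CPM in controls. The groups overlap, control replicate 2 is the highest of the 6 libraries, and the log2 change was −0.29 with a 95% interval from −0.82 to 0.25. ERBB2 and ERBB3 were measured far more tightly, at −0.11 (interval −0.25 to 0.03) and −0.13 (−0.27 to 0.01). The EGFR interval was thus several times as wide as those of the other receptors. ERBB3 had 39.4, 39.7 and 36.1 CPM with overexpression, below all of its controls at 41.6, 44.0 and 40.6 CPM.

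TGFA, the transforming growth factor alpha precursor, had 133, 116 and 122 CPM in A253 overexpression libraries and 107, 106 and 109 CPM in A253 controls. All 3 overexpression libraries lay above all 3 controls, and the log2 change was 0.20 ± 0.06 (adjusted p = 0.0782, edgeR). BTC, which encodes betacellulin, rested on few reads, 26, 20 and 21 with overexpression and 17, 13 and 7 in controls. Its log2 change was 0.88 ± 0.30 (adjusted p = 0.0964, edgeR), with groups that do not overlap. EREG, which encodes epiregulin, had 43.2, 48.3 and 46.2 CPM with overexpression and 44.6, 42.4 and 42.3 CPM in controls. The groups overlap, and the interval of its change, −0.05 to 0.23, was narrow. NRG1 was likewise close to its control, at 165, 153 and 143 CPM with overexpression and 153, 167 and 148 CPM in controls, with an interval of −0.16 to 0.11. HBEGF, EPGN and AREG had at most 47 reads in any A253 library, and their intervals were wide: −0.27 to 0.56, −0.65 to 0.44 and −1.23 to 0.11.

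AREG, which encodes amphiregulin, is uncertain throughout. The hg19 assembly carries a near-identical second copy of this gene, and how reads that match both copies were counted is not given in the sources used here. EGFR overlaps the antisense gene EGFR-AS1, and the strand setting of the counting is not given either, so reads of the pair cannot be told apart. EGFR-AS1 had between 3.77 and 11.4 CPM over the libraries, against at least 236 CPM for EGFR.

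In SCC25 4 of the 8 members tested passed with EHF overexpression, where 23.9% of all 14120 genes tested passed. EGFR and ERBB3 were higher, 2 of 8 beside 12.2% of all genes, and EREG and EPGN were lower, 2 of 8 beside 11.6% of all genes. The median log2 change of the 8 members was −0.15, against 0.00 for all genes. EGFR had 593 and 606 CPM in the overexpression libraries and 484 and 411 CPM in the controls. Both overexpression libraries lay above both controls, and EGFR was 1.34-fold higher (log2 0.42 ± 0.06, adjusted p = 1.4e-05, edgeR). ERBB3 had 60.3 and 54.4 CPM with overexpression and 46.6 and 45.5 CPM in controls, which did not overlap. Its log2 change was 0.31 ± 0.07 (adjusted p = 0.00165, edgeR), but it did not pass without overexpression replicate 1 (0.24, adjusted p = 0.0668). ERBB2 had 49.99 and 55.4 CPM with overexpression and 47.4 and 49.3 CPM in controls, and its log2 change of 0.13 ± 0.07 did not pass (adjusted p = 0.18, edgeR).

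The EGFR ligands in SCC25 went the other way from EGFR where they passed. EREG had 13.7 and 14.8 CPM with overexpression and 20.8 and 20.6 CPM in controls. Its overexpression libraries lay well below both controls, and EREG was 1.45-fold lower (log2 −0.53 ± 0.10, adjusted p = 0.000424, edgeR). EPGN, which encodes epigen, a low-affinity ligand of EGFR, had 2.17 and 1.93 CPM with overexpression and 4.63 and 4.53 CPM in controls. It was 2.25-fold lower (−1.17 ± 0.23, adjusted p = 0.000432, edgeR), from 23 and 29 reads against 75 and 67. HBEGF had 11.9 and 11.7 CPM with overexpression and 13.2 and 15.01 CPM in controls, without overlap, and its log2 change of −0.25 ± 0.12 did not pass (adjusted p = 0.13, edgeR). TGFA overlapped, with 55.8 and 51.4 CPM with overexpression, 54.7 and 57.7 CPM in controls and a log2 change of −0.07 ± 0.07. NRG1 had 37.4 and 31.1 CPM with overexpression and 41.6 and 37.7 CPM in controls, at −0.23 ± 0.09 (adjusted p = 0.0592, edgeR). Both NRG1 libraries with overexpression lay below both controls, and it passed without overexpression replicate 1 (adjusted p = 0.00888) and without control replicate 2 (adjusted p = 0.0358). AREG and BTC fell under the count filter in SCC25. AREG had 6 and 1 reads with overexpression and 7 and 7 in controls, and BTC had 7 and 5 reads with overexpression and 6 and 3 in controls.

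**Figure D2:**
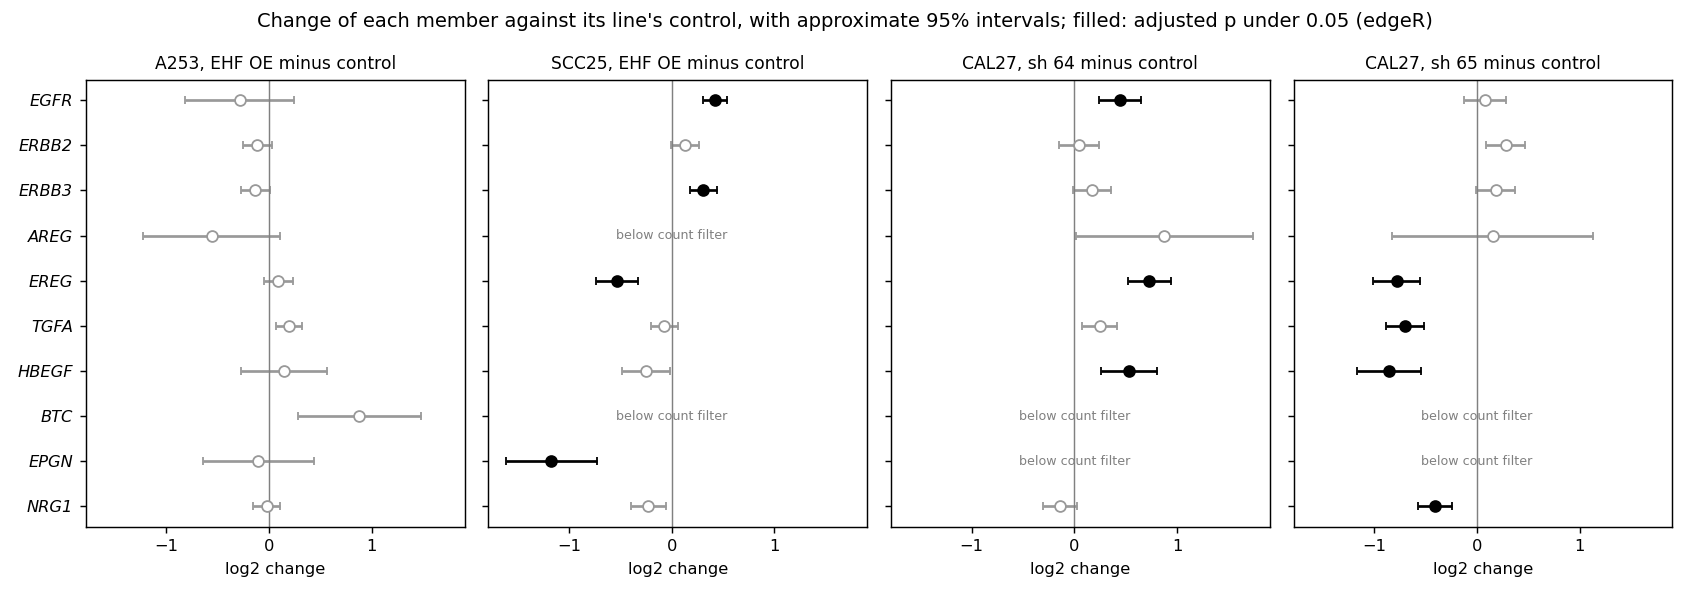
Each panel shows the log2 change of the 10 members in 1 EHF-changed group against its line's control, with bars for the approximate 95% interval. Filled points passed the test. None is filled in A253, 4 in SCC25 (EGFR and ERBB3 to the right, EREG and EPGN to the left), 3 with sh 64 and 4 with sh 65.

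Whether the overexpression effect differed between SCC25 and A253 was tested directly, as the SCC25 change minus the A253 change. This test passed for 2 of 10 members, where 5.63% of all 15460 genes passed. EREG differed by −0.64 ± 0.12 (adjusted p = 0.00251, edgeR), lower with overexpression in SCC25 and within its spread in A253. ERBB3 differed by 0.43 ± 0.11 (adjusted p = 0.0199, edgeR), from changes of 0.31 in SCC25 and −0.13, which did not pass, in A253. The ERBB3 difference was lost without A253 overexpression replicate 3 (adjusted p = 0.0512), SCC25 control replicate 1 (0.0518), SCC25 control replicate 2 (0.0995) or SCC25 overexpression replicate 1 (0.143). EPGN, at −1.08 ± 0.38 (adjusted p = 0.1, edgeR), passed without A253 control replicate 2 (−1.42, adjusted p = 0.0267). The other members did not pass, among them EGFR at 0.69 ± 0.37 (adjusted p = 0.388), and the interval for EGFR ran from −0.04 to 1.42. The lines also differ in the size of the EHF contrast, by the values given above, and its part in these differences was not tested.

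In CAL27 the ligand genes EREG and HBEGF were higher with sh 64 and lower with sh 65. Against the shared controls, sh 64 gave 3 of 8 members past the threshold, where 15.7% of all 13629 genes passed, and all 3 were higher (EREG, HBEGF and EGFR, beside 8.76% of all genes higher and 6.89% lower). Against the same controls, sh 65 gave 4 of 8, where 14.6% of all genes passed, and all 4 were lower (HBEGF, EREG, TGFA and NRG1, beside 7.62% of all genes higher and 7.01% lower). The difference was tested directly as sh 65 against sh 64, a comparison that uses no control library for its means. EREG, HBEGF and TGFA passed, 3 of 8 members where 5.34% of all genes passed, and all 3 were lower with sh 65. The median log2 difference of the 8 members was −0.54, against 0.00 for all genes. BTC and EPGN fell under the count filter in CAL27, with at most 15 reads in any library.

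EREG had 90.2 and 109 CPM with sh 64, 38.4 and 30.6 CPM with sh 65, and 60.7 and 58.8 CPM in CAL27 controls. The 3 groups do not overlap, and the controls lie between the hairpins. The log2 change of EREG was 0.73 ± 0.11 with sh 64 (adjusted p = 0.000176, edgeR) and −0.78 ± 0.12 with sh 65 (adjusted p = 0.000199), and sh 65 stood 2.86-fold below sh 64 (−1.51 ± 0.11, adjusted p = 3.1e-07). HBEGF had 22.3 and 20.1 CPM with sh 64, 9.14 and 7.02 CPM with sh 65, and 14.3 and 15.1 CPM in controls. Here too the controls stood between the hairpins. HBEGF changed by 0.53 ± 0.14 with sh 64 (adjusted p = 0.0136, edgeR) and by −0.86 ± 0.16 with sh 65 (adjusted p = 0.00136), and sh 65 stood 2.62-fold below sh 64 (−1.39 ± 0.16, adjusted p = 2.72e-05). Its rise with sh 64 did not pass by DESeq2 (adjusted p = 0.0917), nor without sh 64 replicate 1 (0.177), control replicate 1 (0.108) or control replicate 2 (0.0797). TGFA had 73.6 and 75.3 CPM with sh 64, 39.5 and 37.8 CPM with sh 65, and 66.8 and 59.3 CPM in controls. It was lower with sh 65 by −0.70 ± 0.09 (adjusted p = 6.11e-05, edgeR), while the 0.25 ± 0.09 with sh 64 did not pass (adjusted p = 0.0699; 0.037 and 0.0366 without sh 65 replicate 1 or 2). TGFA with sh 65 stood 1.92-fold below sh 64 (−0.94 ± 0.10, adjusted p = 9.2e-06).

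The stretches upstream of these 3 ligand genes are shown because the genes were the ones that set the hairpins apart and because ETS factors such as EHF bind DNA around a GGAA core. They are the 250 bases before an annotated start from RefSeq on GRCh38.p14, read 5′ to 3′ on the gene's strand, with each GGAA or its reverse complement TTCC in capitals. EREG lies at chr4:74364895-74365144 on the plus strand, HBEGF at chr5:140346604-140346853 on the minus strand and TGFA at chr2:70553827-70554076 on the minus strand. TGFA has a second start in that table, whose upstream stretch at chr2:70553447-70553696 is described but not printed.
EREG: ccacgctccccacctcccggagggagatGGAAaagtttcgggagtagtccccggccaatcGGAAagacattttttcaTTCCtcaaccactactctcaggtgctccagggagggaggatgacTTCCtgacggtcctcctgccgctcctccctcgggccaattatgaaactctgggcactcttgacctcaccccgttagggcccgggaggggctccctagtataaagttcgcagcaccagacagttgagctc
HBEGF: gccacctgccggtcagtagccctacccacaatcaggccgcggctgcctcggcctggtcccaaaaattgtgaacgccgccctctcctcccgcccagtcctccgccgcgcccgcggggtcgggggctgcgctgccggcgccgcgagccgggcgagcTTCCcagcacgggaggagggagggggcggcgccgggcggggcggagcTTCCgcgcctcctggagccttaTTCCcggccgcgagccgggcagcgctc
TGFA: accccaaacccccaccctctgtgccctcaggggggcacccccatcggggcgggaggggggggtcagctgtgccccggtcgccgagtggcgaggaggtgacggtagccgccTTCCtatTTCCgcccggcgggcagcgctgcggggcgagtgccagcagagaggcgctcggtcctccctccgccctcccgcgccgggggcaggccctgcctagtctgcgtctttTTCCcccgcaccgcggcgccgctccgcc

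The EREG stretch holds 4 such cores, and the HBEGF stretch and the printed TGFA stretch hold 3 each. The other TGFA stretch holds 7. A core of this kind is common, present in 92.7% of the 35116 promoters of the same length in the RefSeq table. The longer form CCGGAA, or TTCCGG on the other strand, which includes the short core, is in 14.5% of them and in none of the 3 printed stretches, while the other TGFA stretch has 1 match. Among the remaining members with a promoter in that table, ERBB2 has 2 matches to the longer form, on opposite strands, and AREG has 1. These matches describe the letters in the window and are not measured binding sites.

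No receptor passed between the hairpins in the fit by edgeR, and EGFR passed under some alternatives. EGFR had 570 and 581 CPM with sh 64, 502 and 390 CPM with sh 65, and 449 and 398 CPM in controls. Its sh 64 libraries lay above both others, at 0.44 ± 0.10 over the controls (adjusted p = 0.0114, edgeR), while the sh 65 libraries overlapped the controls. The rise with sh 64 did not pass without sh 64 replicate 1 (adjusted p = 0.0928), sh 64 replicate 2 (0.0799) or control replicate 2 (0.0985), nor on the TPM scale. EGFR in sh 65 against sh 64 gave −0.37 ± 0.10 (adjusted p = 0.0627, edgeR), and passed in 6 of 12 alternatives. These were DESeq2 (adjusted p = 0.0306), no filter on low counts (0.000236), the replicate block (0.00255) and leaving out sh 65 replicate 1 (2.07e-05), control replicate 1 (0.0489) or control replicate 2 (0.0456). ERBB2 had 40.02 and 44.01 CPM with sh 64, 50.01 and 48.2 CPM with sh 65, and 38.7 and 41.9 CPM in controls. The sh 65 libraries of ERBB2 lay above the rest, at 0.28 ± 0.10 over the controls (adjusted p = 0.0629, edgeR). ERBB3 had 43.6 and 42.5 CPM with sh 64, 42.0 and 44.9 CPM with sh 65, and 37.8 and 38.6 CPM in controls. All 4 knockdown libraries lay above both controls, and the log2 changes of 0.17 ± 0.10 and 0.18 ± 0.10 did not pass.

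NRG1 was lower with both hairpins, and it was the only member past the threshold for the mean of the hairpins, 1 of 8 where 18.8% of all genes passed (9.88% higher and 8.91% lower). It had 142 and 141 CPM with sh 64, 127 and 108 CPM with sh 65, and 160 and 153 CPM in controls. No knockdown library reached the controls. The mean of the hairpins gave −0.27 ± 0.07 (adjusted p = 0.0121, edgeR), with −0.14 ± 0.08 for sh 64 (adjusted p = 0.274) and −0.40 ± 0.08 for sh 65 (adjusted p = 0.00302). Leaving out control replicate 1 or 2 ended the call for the mean (adjusted p = 0.183 and 0.0776), and leaving out control replicate 1 ended that for sh 65 (0.0525). AREG had 18 and 13 reads with sh 64, 11 and 6 with sh 65, and 11 and 13 in controls, and it passed in none of the CAL27 comparisons. NRG1 and AREG differed between sh 65 and sh 64 by −0.26 ± 0.09 (adjusted p = 0.0861, edgeR) and −0.72 ± 0.47 (adjusted p = 0.463), and the NRG1 difference passed without sh 65 replicate 1 (0.0114). For the mean of the hairpins EGFR was at 0.26 ± 0.09 (adjusted p = 0.063, edgeR) and TGFA at −0.23 ± 0.08 (0.0521). Without sh 65 replicate 2 the EGFR mean passed (0.000128), and without sh 65 replicate 1 the TGFA mean passed (0.0348).

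The summed TPM of the 7 ligand genes followed from these changes. It was 120 and 131 TPM with sh 64, 72.3 and 59.9 TPM with sh 65, and 109 and 101 TPM in CAL27 controls. The groups do not overlap, with the controls again between the hairpins. EREG made up 29.6% and 33.9% of the ligand sum with sh 64, 21.5% and 19.96% with sh 65, and 23.3% and 23.8% in controls. The NRG1 share was 27.65% and 25.998% with sh 64, 42.2% and 41.9% with sh 65, and 36.5% and 36.7% in controls. In SCC25 the sum was 53.0 and 49.0 TPM with overexpression and 60.0 and 58.4 TPM in controls, and in A253 it lay between 114 and 127 TPM with overexpression and between 109 and 122 TPM in controls. EPGN made up 2.75% and 2.67% of the SCC25 sum with overexpression and 5.31% and 5.06% in controls, a small part of the sum in both groups.

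**Figure D3:**
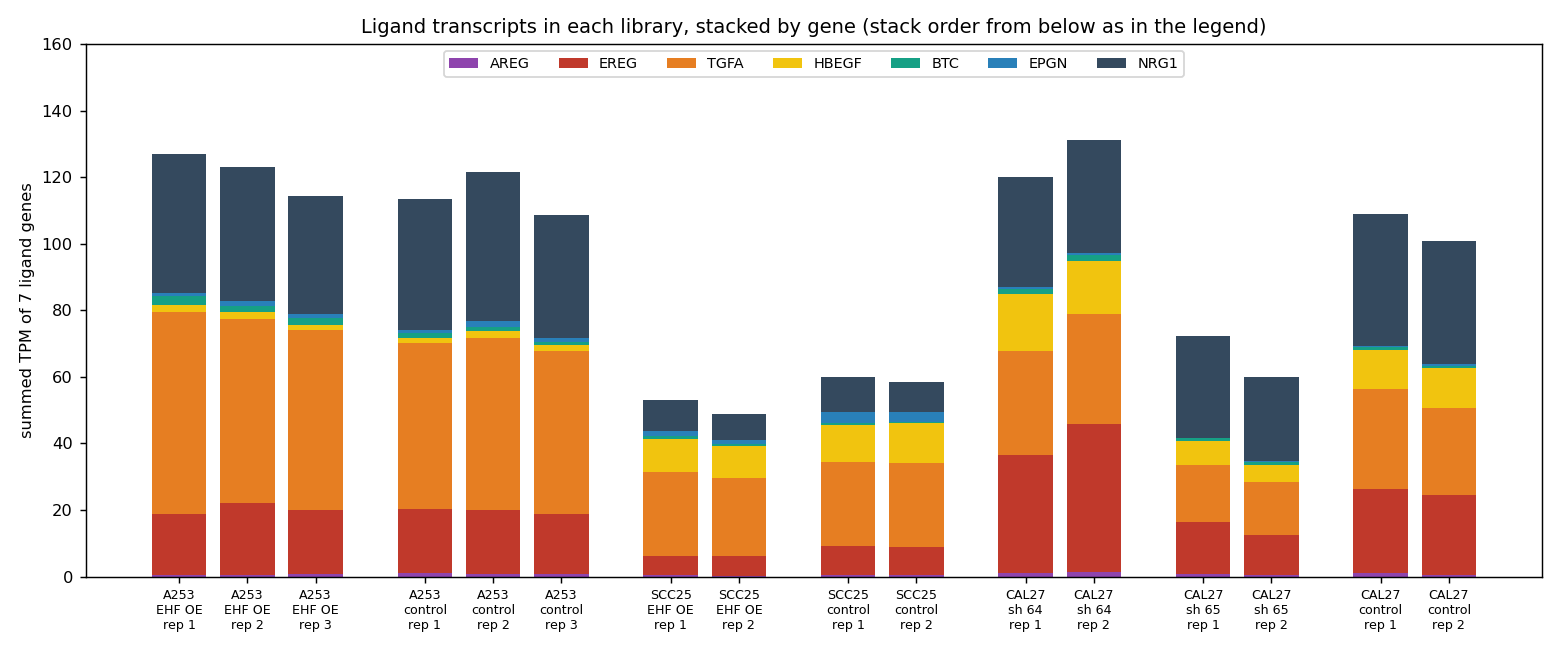
Each bar is 1 library and its height is the summed TPM of the 7 ligand genes on an axis from 0, stacked by gene, with each EHF-changed group left of its line's control. The sh 65 bars, at 72.3 and 59.9 TPM, are the lowest of CAL27, and HBEGF is a visible layer in SCC25 and CAL27 and a thin layer in A253.

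The remaining genes of the family added little. ERBB4 had 29 reads over the 3 A253 overexpression libraries and 30 over the 3 A253 controls, and at most 8 over any group of SCC25 or CAL27. NRG3 had 1 read over all the libraries. Of the 5 genes ERBB4, EGF, NRG2, NRG3 and NRG4, 2 passed the count filter in each line, and none of them passed the test in any comparison with a control. In A253 1 of the 5 passed, as higher, with no filter on low counts and without control replicate 3. EGF averaged 2.68 CPM with sh 64, 2.01 CPM with sh 65 and 1.53 CPM in CAL27 controls.

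Genes that act on the release of the ligands from their precursors, among them TIMP3, which inhibits it, were followed as a list of 11, all of which passed the count filter. With overexpression 2 were higher in A253 (ADAM15 and ADAM9) and none lower, beside 5.03% of all genes higher and 2.94% lower. In SCC25 6 were higher (ADAM10, ADAM15, ADAM17, ADAM9, RHBDL2 and TIMP3) and 1 was lower (FURIN), beside 12.2% of all genes higher and 11.6% lower. The median log2 change of the list was 0.07 in A253 and 0.23 in SCC25, against 0.00 for all genes in both. The hairpins had 3 higher and 2 lower (sh 64) and 2 higher and 1 lower (sh 65), where 15.7% and 14.6% of all genes passed, with medians of 0.12 and −0.05. ADAM9, a surface metalloprotease, was higher in A253 at 0.30 ± 0.07 and in SCC25 at 0.63 ± 0.05 (adjusted p = 0.00702 and 8.77e-10, edgeR). In CAL27 it was lower with sh 64 at −0.26 ± 0.07 and with sh 65 at −0.22 ± 0.07 (adjusted p = 0.0187 and 0.0436, edgeR). Neither CAL27 call survived leaving out a library of that hairpin or a control, with adjusted p between 0.0701 and 0.231 for sh 64 and between 0.0525 and 0.356 for sh 65. ADAM9 averaged 247 CPM with sh 64, 254 CPM with sh 65 and 296 CPM in CAL27 controls. ADAM17, the main protease for several of these ligands, was higher with sh 64 at 0.38 ± 0.08 and in SCC25 at 0.25 ± 0.06, and lower in sh 65 against sh 64 at −0.32 ± 0.08 (adjusted p = 0.0297, edgeR). The sh 64 change of ADAM17 was lost without control replicate 1 (0.105), and its difference between the hairpins was lost by DESeq2 (0.0918) and on leaving out any CAL27 library but sh 65 replicate 2 (0.0615 to 0.127). TIMP3, the inhibitor of ADAM17, and RHBDL2, a rhomboid protease, were higher with both hairpins. TIMP3 changed by 1.33 ± 0.22 with sh 64 and 0.96 ± 0.23 with sh 65, from a control level of 3.27 CPM, and RHBDL2 by 0.98 ± 0.20 with each. The call of TIMP3 with sh 65 was lost on leaving out control replicate 1 (adjusted p = 0.0511) or 2 (0.0543), and RHBDL2 with sh 64 did not pass without sh 64 replicate 1 (0.0946).

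Of 20 genes that carry the signal on from the receptors, 2 were higher and 1 was lower in A253, and 5 were higher and 1 was lower in SCC25, with medians of −0.02 and 0.03. They stand beside 7.97% of all genes that passed in A253 and 23.9% in SCC25. The 5 higher in SCC25 became 2 without control replicate 2 or without overexpression replicate 1. In A253 1 was higher and none was lower by DESeq2, by limma on either TPM scale and without control replicate 1, control replicate 2 or overexpression replicate 3. The sh 64 libraries had 2 higher and 1 lower, the sh 65 libraries had 1 higher and 1 lower, and none passed between the hairpins, where 15.7%, 14.6% and 5.34% of all genes passed in the same order. Without control replicate 1 no gene of the list passed with either hairpin, and without control replicate 2 none passed with sh 65. SHC1, an adaptor that binds the activated receptors, was higher in A253 at 0.34 ± 0.06 (adjusted p = 0.00143, edgeR). Of the 2 kinases directly above ERK, MAP2K2 was lower in SCC25 at −0.36 ± 0.06 (adjusted p = 0.000143, edgeR) and MAP2K1 was higher at 0.23 ± 0.05 (adjusted p = 0.00296). The MAP2K1 call was lost without overexpression replicate 2 (0.0513). SOS2, an activator of RAS, was higher with sh 64 at 0.43 ± 0.10 and with sh 65 at 0.38 ± 0.10, but both calls were lost on leaving out control replicate 1 (adjusted p = 0.0612 and 0.0976) or 2 (0.103 and 0.173). GAB2, a docking protein, averaged 2.37 CPM with overexpression and 1.23 CPM in A253 controls, and 1.25 CPM with overexpression and 0.52 CPM in SCC25 controls. Its log2 changes of 0.96 ± 0.23 and 1.26 ± 0.42 passed (adjusted p = 0.0136 and 0.0294, edgeR), and leaving out any SCC25 library ended the call in SCC25 (adjusted p between 0.0762 and 0.197). In A253 the GAB2 call was lost by DESeq2 (0.116) and without control replicate 1 (0.0553), control replicate 2 (0.0616) or overexpression replicate 3 (0.0633).

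Of 16 negative regulators of the receptors, SCC25 had 3 higher (CBLB, ERRFI1 and LRIG1) and 1 lower (PTPN1), and A253 had LRIG1 higher and LRIG3 lower. The 4 of 16 in SCC25 stand beside 23.9% of all genes, and the 2 of 16 in A253 beside 7.97%. In SCC25 the 3 higher became 1 by DESeq2 and without control replicate 2 or overexpression replicate 1, where neither CBLB (adjusted p between 0.05997 and 0.102) nor LRIG1 (between 0.056 and 0.199) passed. LRIG1 in SCC25 also did not pass without control replicate 1 (0.098) or by limma on either TPM scale (0.0703 and 0.0697). LRIG1 in A253 changed by 0.38 ± 0.09, a call lost on leaving out control replicate 1 (adjusted p = 0.104). The hairpins had 2 higher and 2 lower (sh 64) and 1 higher and 1 lower (sh 65), where 15.7% and 14.6% of all genes passed. ERRFI1, an inhibitor that binds the EGFR kinase, averaged 322 CPM with overexpression and 186 CPM in SCC25 controls, 1.73-fold higher (0.79 ± 0.05, adjusted p = 1.12e-11, edgeR). In CAL27 it averaged 101 CPM with sh 64, 64.9 CPM with sh 65 and 66.4 CPM in controls. The sh 64 libraries of ERRFI1 thus stood apart, at 0.60 ± 0.08 over the controls, and it was lower in sh 65 against sh 64 at −0.64 ± 0.08 (adjusted p = 0.000101, edgeR). CBLB, a ubiquitin ligase that marks the receptors for breakdown, was higher with sh 64 at 0.67 ± 0.14 and with sh 65 at 0.59 ± 0.15. Without control replicate 2 neither CBLB change passed (adjusted p = 0.0759 and 0.137), and the sh 64 change did not pass without sh 64 replicate 1 (0.0836). PTPN2, a phosphatase of EGFR, was lower with both hairpins, at −0.29 with sh 64 (adjusted p = 0.0217, edgeR) and −0.32 ± 0.08 with sh 65 (adjusted p = 0.0121). The sh 65 call was lost without control replicate 1, control replicate 2 or sh 65 replicate 1. The sh 64 call was lost by DESeq2 (adjusted p = 0.0656). It was also lost without sh 64 replicate 1 (log2 change −0.24), control replicate 1 (−0.30) or control replicate 2 (−0.28).

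Genes that respond to ERK activity, downstream of the receptors, were followed as a list of 18, all of which passed the count filter. In sh 65 against sh 64, 7 of the 18 were lower (DUSP4, DUSP5, DUSP6, ETV5, IER3, MYC and PHLDA1) and none was higher, with a list median of −0.51 against 0.00 for all genes. In that comparison 5.34% of all genes passed, 427 lower and 301 higher of 13629. The count of 7 lay between 6 and 10 over the other settings and left-out libraries. Against the shared controls, sh 64 had 5 higher and 2 lower with a median of 0.22, and sh 65 had 1 higher and 8 lower with a median of −0.39, where 15.7% of all genes passed with sh 64 and 14.6% with sh 65. Over the same alternatives sh 64 had 4 to 6 higher and 0 to 4 lower, and sh 65 had 1 higher and 4 to 11 lower. ETV5 in sh 65 against sh 64 was lost without sh 64 replicate 2 (adjusted p = 0.0672). DUSP6, a phosphatase that switches ERK off and is itself induced by ERK, averaged 64.03 ± 2.92 CPM with sh 64, 30.7 ± 3.82 CPM with sh 65 and 38.8 ± 3.23 CPM in controls (SD, n = 2 each). It was higher with sh 64 at 0.73 ± 0.10 (adjusted p = 0.000104, edgeR), and sh 65 stood below sh 64 by −1.05 ± 0.11 (adjusted p = 1.08e-05). IER3, an immediate early gene, averaged 223 ± 25.6 CPM with sh 64, 111 ± 14.7 CPM with sh 65 and 155 ± 6.5 CPM in controls (SD, n = 2 each). Its difference between the hairpins was −1.01 ± 0.10 (adjusted p = 1.08e-05, edgeR), and its controls lay between the hairpins.

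Some genes of the ERK list moved the same way with both hairpins. EGR1, an immediate early transcription factor, was 2.91-fold higher with sh 64 and 2.94-fold higher with sh 65, with 6.64 ± 0.78 CPM with sh 64, 6.78 ± 0.86 CPM with sh 65 and 2.26 ± 0.23 CPM in controls (SD, n = 2 each). DUSP4, another phosphatase of ERK, was lower with both, at −0.44 ± 0.12 with sh 64 and −1.27 ± 0.13 with sh 65. It was lower still with sh 65 than with sh 64 by −0.82 ± 0.13 (adjusted p = 0.00103, edgeR). The DUSP4 call with sh 64 was lost by DESeq2 (adjusted p = 0.0665) and by limma on either TPM scale (0.0854 and 0.0939). That call was also lost without sh 64 replicate 1 (log2 change −0.35) or control replicate 1 (−0.36). With overexpression in SCC25, 3 of the 18 were higher (EGR1, EPHA2 and PHLDA1) and 7 were lower (CCND1, DUSP6, ETV4, ETV5, IER3, SPRED1 and SPRY4), with a median of −0.17, where 23.9% of all genes passed. By DESeq2 the SCC25 counts were 2 higher and 4 lower. DUSP6 in SCC25 averaged 14.7 CPM with overexpression and 24.6 CPM in controls (−0.75 ± 0.10, adjusted p = 7.1e-06, edgeR). In A253, 2 of the 18 were higher (FOSL1 and MYC) and 1 was lower (IER3), with a median of 0.07, where 7.97% of all genes passed. MYC averaged 116 CPM with overexpression and 81.2 CPM in A253 controls (0.51 ± 0.07, adjusted p = 0.00022, edgeR).

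In A253, KRT14 and KRT6A of the squamous list and COL3A1 of the fibroblast list were lower with overexpression, while CD68 was higher. The squamous list summed there to between 9641 and 11247 TPM with overexpression and between 11853 and 12264 TPM in controls. The A253 fibroblast list summed to between 2.37 and 2.78 TPM with overexpression and between 3.30 and 4.19 TPM in controls, and the leukocyte list to between 174 and 201 TPM and between 134 and 140 TPM in the same order. Squamous markers also moved beside the CAL27 changes: 5 of the 7 (DSP, KRT14, KRT5, KRT6A and TP63) were higher with each hairpin, and 1 of them, KRT5, was also higher in sh 65 against sh 64. The 7 markers summed to between 7665 and 8056 TPM with sh 64, between 8445 and 9223 TPM with sh 65 and between 5582 and 5726 TPM in CAL27 controls. LUM, 1 of the 6 fibroblast markers, was higher with sh 64 and lower in sh 65 against sh 64, and that list summed to between 9.41 and 11.7 TPM with sh 64, 4.65 and 5.78 TPM with sh 65 and 4.65 and 4.97 TPM in controls. CDH5 of the endothelial list was lower with sh 64, and that list summed to between 1.55 and 2.146 TPM with sh 64, 1.78 and 2.3002 TPM with sh 65 and 2.80 and 3.37 TPM in CAL27 controls. In SCC25 CDH1, DSP and TP63 of the squamous list and COL1A1 and COL1A2 of the fibroblast list were higher with overexpression, while DCN was lower. The squamous list as a whole did not rise in SCC25, with a median log2 change of −0.05. It summed to between 13262 and 13778 TPM with overexpression and between 13848 and 13873 TPM in controls. The fibroblast list summed there to between 75.2 and 79.5 TPM with overexpression and between 66.1 and 78.3 TPM in controls. The part of these markers in the receptor and ligand values was not tested.

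**Figure D4:**
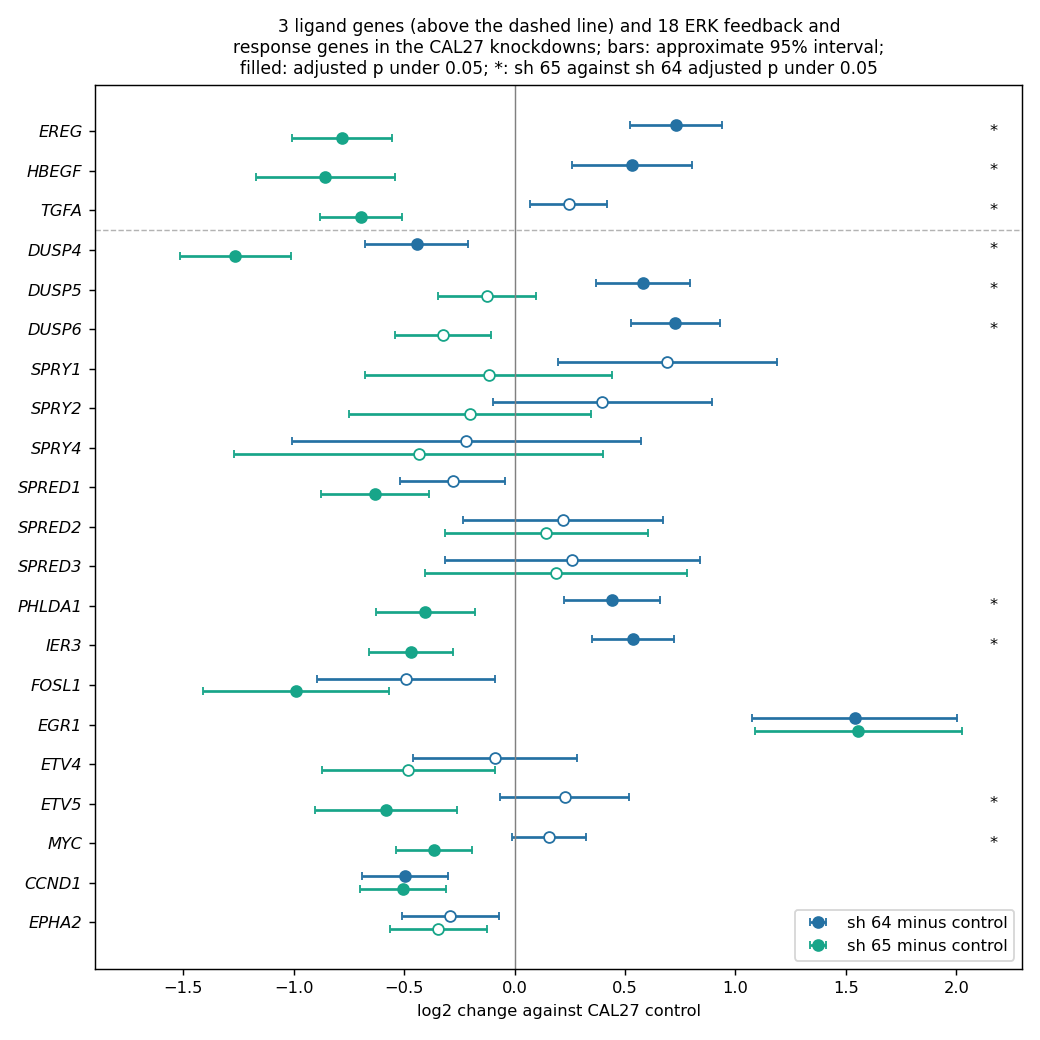
The log2 change against CAL27 controls is shown for sh 64 (upper point of each pair) and sh 65 (lower point), with bars for the approximate 95% interval, for EREG, HBEGF and TGFA above the dashed line and the 18 ERK response genes below it. Filled points passed the test against the controls, and asterisks mark genes that passed in sh 65 against sh 64. The 3 ligand genes and 7 of the 18 response genes carry an asterisk, all with sh 65 lower, and EGR1 lies to the right with both hairpins.

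The 4 EGFR ligand genes EPGN, EREG, AREG and BTC are consecutive protein-coding genes on chromosome 4 in the RefSeq annotation of GRCh38. In SCC25 EPGN and EREG were lower by 2.25-fold and 1.45-fold. The mean BTC level in SCC25 was 0.732 TPM with overexpression and 0.424 TPM in controls, on 12 and 9 reads in all. In CAL27 EREG was higher with sh 64 and lower with sh 65, while its neighbours AREG, BTC and EPGN had at most 18 reads per library, too few for a change in them to be measured closely. In sh 65 against sh 64 all 4 estimates were below 0, at −1.51 for EREG, −1.39 ± 0.72 for EPGN, −0.79 ± 0.61 for BTC and −0.72 ± 0.47 for AREG, and of these only EREG passed. EPGN and BTC stood under the count filter, so their estimates come from the fit with no filter on low counts.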

How the data were processed

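The authors deposited raw read counts per gene and TPM for each line. Per the submitters' processing notes, TopHat2 2.1.1, Bowtie 1.1.1, featureCounts 1.5.3, DESeq2 1.12.4 and hg19 were used. TPM values in the text were computed from the counts with gene lengths implied by the deposited A253 counts and TPM. Genes without a length from A253 took theirs from the deposited CAL27 counts and TPM. The largest log2 difference from the deposited A253 and CAL27 TPM was 0.0272, over deposited values of at least 1 TPM. The deposited SCC25 TPM were not used. The CAL27 counts had 696 altered names, none of them a member, which were replaced by position from the A253 rows. Replicate libraries differed by more than sampling noise (chi-square per degree of freedom 2.48 to 16.6 over 11 pairs). Counts were tested per line with edgeR 4.0.16 (R 4.3.3; filterByExpr, TMM, robust quasi-likelihood, two-sided), and p-values were adjusted by Benjamini-Hochberg over all genes tested. Intervals are 1.96 SE. The fit was tested on simulated data with known changes, drawn with spreads that edgeR itself had estimated. Not every change was called, and larger changes were recovered more often. The share of false calls came out above the nominal threshold in each line. Alternatives were DESeq2 1.42.0, RLE scaling, no count filter, limma 3.58.1 on log2(TPM + 1) and log2(TPM + 0.1), a replicate block and leaving out each library. All 10 members are named, with, per list and comparison, up to 2 genes of largest change, and for each member the 2 nearest profiles. Further list genes named in the text beyond these were chosen after their values were seen. Members and lists were chosen with earlier results of these data known. A ChIP library and its input DNA were not analysed here.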

Additional observations from a re-analysis of the deposited data

Results flagged for a closer look

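The overexpression effect differed between SCC25 and A253 for 2 genes, by a direct test of the difference. EREG differed by −0.64, being lower with overexpression in SCC25 and close to its control in A253. ERBB3 differed by 0.43, being higher with overexpression in SCC25 (0.31) and lower, without passing, in A253 (−0.13).

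The effects of the CAL27 hairpins, sh 65 minus sh 64, differed by the same kind of test for 3 ligand genes. The difference was −1.51 for EREG, −1.39 for HBEGF and −0.94 for TGFA on the log2 scale. Single libraries were tested for standing apart only in the 4 CAL27 knockdown libraries, with both hairpins pooled. None was flagged for any of the 10 members, but the pool mixes hairpins that differ, which widens its spread. The other groups held too few libraries for that test.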

How the results depend on the processing

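No change of sign among passing results was found over the alternatives run. The counts of members past the threshold moved as follows. In A253 limma on log2(TPM + 1) gave 1 (BTC) in place of 0. For the mean of the CAL27 hairpins, 3 passed with no filter on low counts. For sh 64, limma on log2(TPM + 1) and on log2(TPM + 0.1) gave 1 each in place of 3. In sh 65 against sh 64, 5 passed with no filter, in place of 3. The SCC25 effect minus the A253 effect gave 1 with each limma setting in place of 2, and SCC25 controls against A253 controls gave 5 by DESeq2 in place of 8. Leaving out single libraries gave 0 to 0 in A253, 4 to 5 in SCC25, 0 to 2 for the mean of the hairpins, 1 to 4 for sh 64, 3 to 4 for sh 65, 3 to 5 between the hairpins and 1 to 3 for the difference between lines. Between control lines the ranges were 5 to 8 (SCC25 against A253), 4 to 6 (CAL27 against A253) and 4 to 5 (CAL27 against SCC25). A comparison with a group of 2 then rests on a lone library assumed to vary like the others.

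With the replicate block, 3 members passed for the mean of the hairpins and 5 between the hairpins. It added NRG1 in SCC25 (adjusted p = 0.03997, edgeR), EGFR (0.00617) and TGFA (0.0217) for the mean, TGFA with sh 64 (0.0369), ERBB2 with sh 65 (0.0284), and EGFR (0.00255) and NRG1 (0.0195) between the hairpins, and no member's call was lost. Over all genes the block gave 3317 calls for the mean in place of 2560, and 1260 between the hairpins in place of 728. Correlations of the deviations of same-numbered libraries ran from −0.19 to 0.18 in A253, stood at −0.031 in SCC25 and ran from −0.011 to 0.15 in CAL27. They are not all above 0.1, so the numbers are not taken to pair the libraries. The replicate numbers of sh 64 also differ between the deposited CAL27 counts and TPM. Depth limits AREG, BTC and EPGN most.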

Other observations

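For the members tested in every line, the genes whose profile over the 16 libraries lay nearest were found among 12657 genes. The measure was the root-mean-square difference between log2 CPM profiles, each centred on its own mean. The CPM of these profiles were scaled over the 16 libraries together. Nearest to EREG were INHBA-AS1, at 0.21, and INSIG1, at 0.24. Nearest to HBEGF were TNFAIP3, at 0.30, and PPP4R4, at 0.32. TGFA had FAM126A and ATP6V1B2, both at 0.20, and NRG1 had ACER3 at 0.16 and CD44 at 0.18. Among the receptors, EGFR had BCL2L11 and TNKS2, both at 0.16, ERBB2 had FAM134C and PDXDC1, both at 0.09, and ERBB3 had KDM5A at 0.08 and TPM4 at 0.10. These profiles mix differences between lines with those between groups, so they describe the libraries and carry no test.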
